A study of Rattus norvegicus with 12 samples.

Results

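Glucose handling in liver cells was followed through 8 genes: Pck1, G6pc, Fbp1, Pc, Gys2, Pygl, Slc2a2 and Pklr. Every probe that the array's own annotation assigns to these 8 genes was taken, without regard to its values, which gave 11 of the 45489 probes kept. G6pc, Fbp1 and Pklr each had a pair of probes, and both probes of a pair report on the same RNA. RNA was hybridised to 12 single-colour Agilent arrays, 3 for each of 4 groups. The cultured groups were small hepatocytes, hepatocytic progenitor cells of the F344 rat liver, which were sorted magnetically for CD44 on day 9, kept on Matrigel, and collected at passage 2 after 3 h on a coating. LN111 cells were on laminin-111, LN511 cells on laminin-511, and Mat cells on the basement membrane extract Matrigel. The serum-free medium given in the labels held 10 ng/mL epidermal growth factor, 10 mM nicotinamide, dexamethasone and an insulin-transferrin-selenium supplement. The fourth group, mature hepatocytes (MH), was isolated from fresh liver and served as the control. Culture, the sort and passage all separate the cultured cells from MH at once, so their parts cannot be told apart. The labels do not say which animals or cultures the replicates came from, so p-values reflect only how these samples scattered, and that scatter may be technical.

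The liver releases glucose by building it anew and by breaking down glycogen. Pyruvate carboxylase (Pc) and the cytosolic phosphoenolpyruvate carboxykinase (Pck1) carry pyruvate around the step that pyruvate kinase (Pklr) runs in the glycolytic direction. Fructose-bisphosphatase (Fbp1) and the catalytic subunit of glucose-6-phosphatase (G6pc, G6pc1 in RefSeq) complete the route to free glucose. Glycogen is built by the liver synthase Gys2 and broken down by the liver phosphorylase Pygl, and glucose crosses the hepatocyte membrane through Slc2a2 (GLUT2). In the fasted liver glucagon raises Pck1 and G6pc, and insulin lowers them.

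The 250 bases before the annotated start of Pck1 and G6pc are shown because these genes had the lowest cultured levels relative to MH among the gluconeogenic members. They are RefSeq sequences of the GRCr8 assembly, on the plus strand of chromosome 3 at 182348322 to 182348571 and of chromosome 10 at 86807409 to 86807658. Capitals mark matches, on either strand, to the letters ACGTCA (bound by CREB), GTTAAT (HNF1), TGTTTNC (forkhead factors) or TTGCNNCAA (C/EBP). In G6pc the forkhead and C/EBP letters overlap.
Pck1 upstream: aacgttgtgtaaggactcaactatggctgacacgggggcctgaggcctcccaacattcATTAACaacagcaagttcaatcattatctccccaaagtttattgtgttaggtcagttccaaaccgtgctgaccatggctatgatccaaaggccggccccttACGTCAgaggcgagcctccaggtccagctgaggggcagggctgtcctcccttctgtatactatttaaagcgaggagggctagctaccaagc
G6pc1 upstream: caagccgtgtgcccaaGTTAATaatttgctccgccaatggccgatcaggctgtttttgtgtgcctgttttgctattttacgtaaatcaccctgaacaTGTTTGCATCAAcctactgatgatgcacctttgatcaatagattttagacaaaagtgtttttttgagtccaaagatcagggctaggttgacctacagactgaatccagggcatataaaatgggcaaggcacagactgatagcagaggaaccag
Of the 8 members, 7 were matched in the promoter table. ACGTCA occurred in Pck1 alone of these 7, and in 6.95% of the 33469 promoters of the table. GTTAAT occurred in Pck1 and G6pc and in 6.45% of all promoters, TGTTTNC in G6pc and in 18.3%, and TTGCNNCAA in G6pc and in 1.75%. The E-box letters CACGTG occurred in 0 of 7 and in 5.59% of all promoters. A match describes letters, not a bound site.

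The probes are 60 bases long, and 1 probe for each of 5 members is shown because these letters are what the levels were read from; for G6pc, Fbp1 and Pklr it is the one nearer the 5′ end. No genome of the files' build was used, so probes are placed only as the files place them, on rn4.
Pck1 probe, chr3:164017597-164017656: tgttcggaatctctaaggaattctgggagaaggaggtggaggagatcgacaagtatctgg
G6pc probe, chr10:90402888-90402947: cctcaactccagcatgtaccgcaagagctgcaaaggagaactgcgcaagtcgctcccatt
Fbp1 probe, chr17:7817700-7817759: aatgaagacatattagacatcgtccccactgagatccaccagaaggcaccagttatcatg
Pc probe, chr1:207212309-207212368: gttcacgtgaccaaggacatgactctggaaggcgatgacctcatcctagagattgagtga
Pklr probe, chr2:181221375-181221434: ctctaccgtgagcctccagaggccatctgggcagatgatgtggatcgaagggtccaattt

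Between 52.18% and 62.75% of an array's 58717 non-control spots were well above background, and 0 were saturated. The array of LN111 replicate 3 was the noisiest, whose repeated spots varied by 8.59% (coefficient of variation), against 3.12% to 3.99% on the others. MH arrays and Mat replicates 1 and 2 were on slide 1, and LN111, LN511 and Mat replicate 3 on slide 2. A level below is the log2 of a probe's signal over the 75th percentile of its array, so 0 is that percentile, and levels of different probes are not set against each other. The number of arrays limits the precision.

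In the cultured cells 7 of the 8 genes fell, from 12.6-fold for Pygl to 577-fold for Pck1. Slc2a2 was the exception. By probe, 10 of 11 were lower in the 9 cultured arrays than in the 3 MH arrays at an adjusted p under 0.05 (limma, Benjamini-Hochberg over 23656 probes), where 41.2% of all probes tested were lower and 31.2% higher. The median log2 difference was -5.82 over the 11 probes and -0.16 over all probes tested. It was -4.49 against 0.19 with quantile scaling, -4.78 against 0.88 in unscaled values, -7.10 against -0.15 with the slide as a block, and -4.81 against -0.17 without the replicate 2 arrays of the cultured groups. The value with the slide block is limited by the layout of the slides, as described below. In these 10 probes every cultured array lay below every MH array, a separation whose share among all probes was not counted. With LN111, LN511 and Mat set against MH one at a time, 11, 10 and 10 probes were lower, against 39.1%, 35.6% and 40.2% of all probes. RNA from cell mixtures does not tell fewer expressing cells from less RNA per cell.

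**Figure D1:**
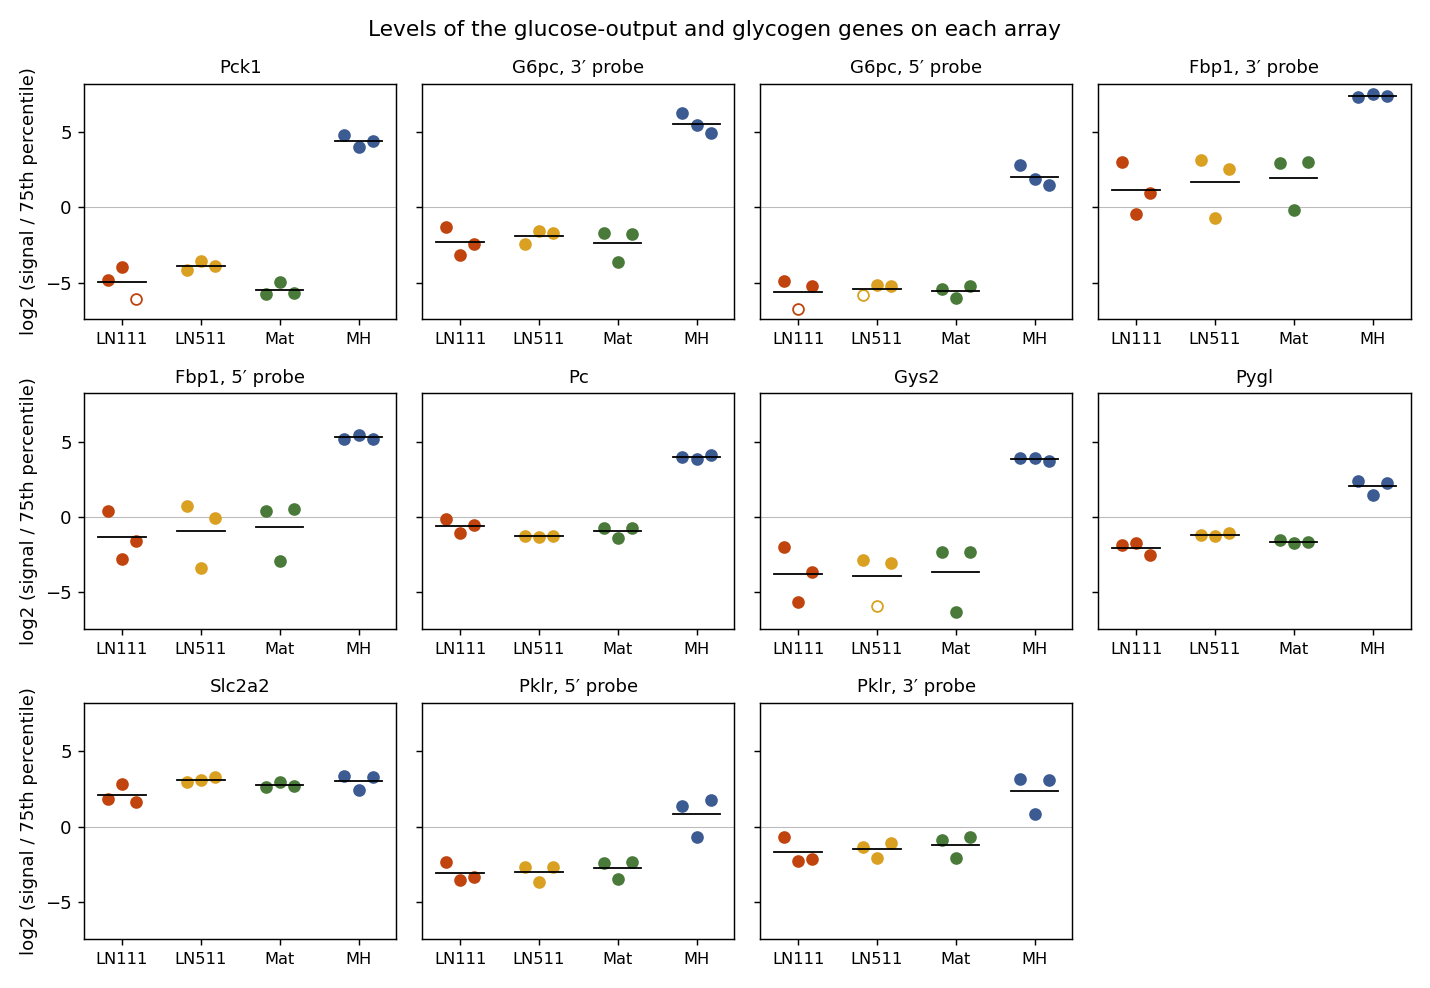
Level of each of the 11 probes (vertical axis, log2 of signal over the array's 75th percentile) on the 3 arrays of LN111, LN511, Mat and MH (points, replicates 1 to 3 from left to right; lines, group means; open points, not well above background). In every panel but that of Slc2a2 all cultured points lie below all MH points.

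Pck1, the cytosolic carboxykinase of gluconeogenesis, had levels of -4.85, -3.96 and -6.10 in LN111 and -4.17, -3.55 and -3.91 in LN511. Those in Mat were -5.78, -4.96 and -5.66, against 4.81, 4.0 and 4.40 in MH. The highest cultured array lay 7.55 log2 below the lowest MH array. The difference was -9.17 ± 0.38 (SE; adjusted p = 1.48e-08). In signal units, the cultured arrays gave 19.6 to 117 and the MH arrays 15400 to 23800, and LN111 replicate 3 was the 1 cultured array not well above background.

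G6pc, whose product frees glucose from its phosphate, was the next to fall among the gluconeogenic genes. Its 3′ probe stood at -3.63 to -1.33 on the cultured arrays (median -1.75), against 4.94 to 6.23 on MH arrays, with a difference of -7.74 ± 0.49 (adjusted p = 2.59e-07). Its 5′ probe gave -7.55 ± 0.40 (adjusted p = 6.5e-08) and was well above background on 7 of 9 cultured arrays. MH arrays spanned 2.45-fold at the 3′ probe, and no cultured array came within 6.27 log2 of them.

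Fbp1 fell in all cultured groups, but its cultured arrays were far apart. At the 3′ probe the levels were 2.97, -0.47 and 0.91 in LN111, 3.15, -0.71 and 2.55 in LN511 and 2.92, -0.17 and 3.02 in Mat, against 7.33, 7.48 and 7.37 in MH. The replicate 2 array was the lowest of its group on every substrate, while MH spanned 1.11-fold. The difference was -5.82 ± 0.97 (adjusted p = 0.000314) at this probe and -6.25 ± 0.99 (adjusted p = 0.000224) at the 5′ probe. Without the 3 replicate 2 arrays of the cultured groups it was -4.81 (adjusted p = 3.15e-05) and -5.22 (adjusted p = 1.96e-05).

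Pc, which makes oxaloacetate in mitochondria for both gluconeogenesis and the citric acid cycle, fell by less and with little scatter. Cultured levels ran between -1.36 and -0.15, with -1.26, -1.30 and -1.28 in LN511, against 3.95, 3.82 and 4.08 in MH. The difference was -4.88 ± 0.20 (adjusted p = 1.18e-08).

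Gys2, the liver glycogen synthase, fell by 7.62 ± 1.01 on the log2 scale (adjusted p = 5.84e-05). Its levels were -2.0, -5.63 and -3.63 in LN111, -2.83, -5.90 and -3.04 in LN511 and -2.35, -6.28 and -2.30 in Mat, against 3.90, 3.94 and 3.70 in MH. The cultured arrays spanned 19.4-fold, the widest of the 11 probes, and their 3 lowest values were the replicate 2 arrays. LN511 replicate 2 was not well above background. Without the replicate 2 arrays of the cultured groups the difference was -6.54 (adjusted p = 2.23e-06).

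Pygl, the phosphorylase that releases glucose from glycogen, had -1.83, -1.73 and -2.54 in LN111, -1.19, -1.26 and -1.04 in LN511 and -1.55, -1.70 and -1.65 in Mat, against 2.40, 1.48 and 2.23 in MH. All cultured arrays were low, and the difference was -3.65 ± 0.21 (adjusted p = 1.45e-07).

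Pklr, the liver pyruvate kinase, is glycolytic rather than gluconeogenic, and it fell too. The 5′ probe had a cultured range of -3.68 to -2.30 (median -2.68), against 1.38, -0.69 and 1.79 in MH. MH replicate 2 stood well below the other MH arrays and was still 1.62 above the highest cultured array. The difference was -3.76 ± 0.51 (adjusted p = 7.48e-05), and that of the 3′ probe -3.82 ± 0.55 (adjusted p = 0.000112). Without MH replicate 2 these were -4.52 and -4.58.

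Slc2a2, the low-affinity glucose carrier, kept levels near those of MH. It had 1.86, 2.81 and 1.65 in LN111, 2.95, 3.09 and 3.31 in LN511 and 2.64, 2.98 and 2.71 in Mat, against 3.38, 2.44 and 3.33 in MH. Cultured and MH arrays overlapped, and the difference of -0.38 ± 0.27 did not pass (adjusted p = 0.214), with a 95% interval of -0.97 to 0.21. That interval excludes a fall of the size of any of the other members, the nearest of which is Pygl with an interval of -4.13 to -3.17. The sign depends on scaling, since the difference was -0.35 with normexp, 0.54 with quantile scaling and 0.66 in unscaled values, none of which passed. Without MH replicate 2 it passed as lower (-0.69, adjusted p = 0.0416). Of the single groups, LN111 was lower than MH (-0.94 ± 0.32, adjusted p = 0.0255), a call lost with the percentile taken over probes (-0.76, adjusted p = 0.0525), in unscaled values, where the sign turned (0.065, adjusted p = 0.891), with quantile scaling (0.00, adjusted p = 0.992), with the slide as a block (adjusted p = 0.297), and on leaving out LN111 replicate 1 (adjusted p = 0.0791), LN111 replicate 3 (0.0948), MH replicate 1 (0.0887) or MH replicate 3 (0.0851).

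Mat was the only cultured group with arrays beside MH on slide 1. There, with 2 Mat and 3 MH arrays, Pck1 differed by -9.77 (adjusted p = 6.15e-05), Gys2 by -8.16 (adjusted p = 0.00224), Pygl by -3.66 (adjusted p = 0.000514) and Slc2a2 by -0.25 (adjusted p = 0.566). The other 7 probes were lower there as well, the 3′ probe of Pklr with the largest adjusted p (0.0114). No slide held LN111 or LN511 beside MH. With the slide as a block in the fit of all 12 arrays, the 10 probes were again lower, and Gys2 moved to -9.19 (adjusted p = 0.00201) and the Fbp1 probes to -7.10 (adjusted p = 0.00697) and -7.64 (adjusted p = 0.00526). The slide term of that fit comes from Mat replicates 1 and 2 set against Mat replicate 3. Mat replicate 2 was far below the other Mat arrays for Gys2 (-6.28 against -2.35 and -2.30). The same held for the 3′ probe of Fbp1 (-0.17 against 2.92 and 3.02). The block thus cannot tell a slide effect from the deviation of this array, and these shifts are not a correction for slide.

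Several members have a sister gene that does the same chemistry in other tissues or compartments, and most of these were higher in culture. Pck2, the mitochondrial carboxykinase, rose by 0.98 ± 0.16 (adjusted p = 0.000252). G6pc3, the ubiquitous phosphatase subunit, rose by 1.35 ± 0.20 (adjusted p = 0.000149). Gys1, the muscle-type synthase, rose by 0.60 ± 0.16 (adjusted p = 0.00641), and Pygb, the brain-type phosphorylase, by 3.77 ± 0.16 (adjusted p = 1.57e-08, well above background on 2 of 3 MH arrays). Slc2a1 (GLUT1), the carrier of most dividing cells, rose by 2.43 ± 0.17 (adjusted p = 4.88e-07). Pkm, the pyruvate kinase of most tissues outside the liver, rose by 4.45 ± 0.26 (adjusted p = 1.3e-07). All 6 were also positive with normexp, where Gys1 shrank to 0.26, and with quantile scaling, where the median of all probes was 0.19. The unscaled values were positive but could not be otherwise, since there all differences shift up by the same amount. Fbp2, the muscle bisphosphatase, went the other way: it was at least 10.7-fold lower (adjusted p = 6.77e-05), where the bound sets the MH mean against the lowest signals well above background on the cultured arrays. MH levels of Fbp2 were -3.92, -1.52 and -4.60, and the bound was 5.69-fold without MH replicate 2 and 16.5-fold without MH replicate 3. Bounds here and below hold only for the main background correction. With normexp, which adds an offset of 50, the Fbp2 difference was -2.03. Pygm, the muscle phosphorylase, was not tested, being well above background on 5 of 9 cultured and 1 of 3 MH arrays.

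**Figure D2:**
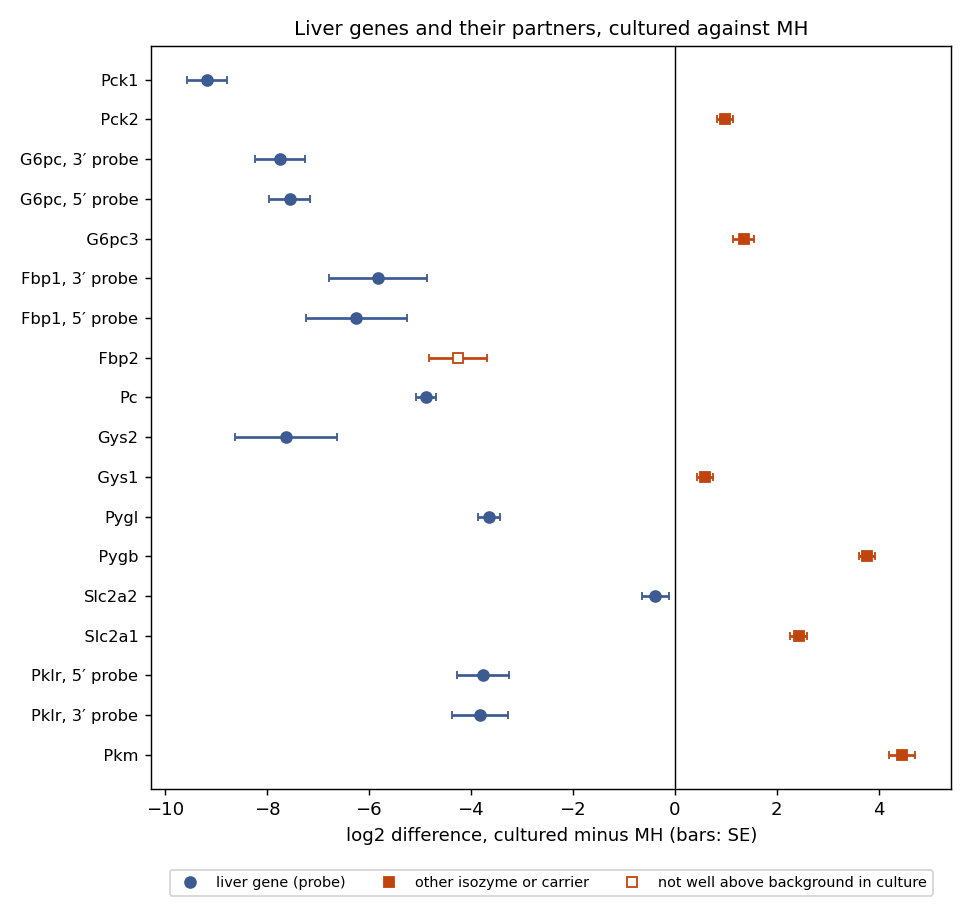
Log2 difference, cultured minus MH (horizontal axis, bars are SE), for the 11 probes of the liver genes (circles) and for the tested sister genes listed under each (squares; the open square was not well above background on any cultured array). Pck1 lies furthest to the left at -9.17 and Pkm furthest to the right at 4.45.

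The other genes of the pathways were described by lists, with the brightest probe of each gene. Their counts stand beside the 41.2% of all probes tested that were lower in culture and the 31.2% that were higher. Of 14 gluconeogenesis partners, meaning the shuttle, carrier and aldolase genes around the members and their sister genes, 12 fell and 2 rose, with a median of -2.47 against -0.16 over all probes. The mitochondrial aspartate-glutamate carrier Slc25a13 fell (-4.98 ± 0.23, adjusted p = 3.07e-08), as did the pyruvate carrier subunit Mpc1 (-2.60 ± 0.12, adjusted p = 2.35e-08) and the malate dehydrogenases Mdh2 (-1.91 ± 0.10) and Mdh1 (-1.89 ± 0.10). The 2 that rose were Pck2 and G6pc3.

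Genes that feed lactate, amino acids, glycerol and propionate into glucose were lower in culture, with 15 of 16 falling and 1 rising (median -2.75). Sds, serine dehydratase, fell (adjusted p = 7.09e-08) but was well above background on 1 of 9 cultured arrays, so its size is not settled: the difference was -8.83 as fitted, -7.91 with signals raised to background and -5.83 with normexp. Glycerol kinase (Gk, -6.58 ± 0.39), alanine aminotransferase (Gpt, -4.87 ± 0.15) and a propionyl-CoA carboxylase subunit (Pccb, -2.69 ± 0.16) fell as well. Ldhb, a lactate dehydrogenase subunit of heart type, was the one that rose (2.84 ± 0.16, adjusted p = 9.4e-08).

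In the glycogen list, 12 of 21 tested genes fell, 6 rose and 3 did not pass (median -1.30). Ppp1r3b, which targets protein phosphatase 1 to liver glycogen, was lower by at least 81.6-fold (adjusted p = 3.88e-07), with 0 of 9 cultured arrays well above background. Its MH levels were 0.88, -2.06 and -0.22, and the bound was 51.3-fold without MH replicate 1 and 142-fold without MH replicate 2. With normexp the Ppp1r3b difference was -4.35. Phosphoglucomutase Pgm1 (-3.24 ± 0.13) and Ugp2, which makes UDP-glucose (-3.09 ± 0.12), fell. Those that rose included Pygb, Ppp1r3d (1.22 ± 0.18), Pgm2 (0.77 ± 0.13) and Gyg1, which primes new glycogen (1.02 ± 0.18). Gaa, 1 of the 12 that fell, had the opposite sign in unscaled values.

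Glucose uptake and the control of glycolysis were split, with 9 of 15 genes higher and 6 lower (median 1.74). Hexokinase Hk1 was at least 22.1-fold higher (adjusted p = 8.68e-10), with 0 of 3 MH arrays well above background. Its log2 difference with normexp was 2.32. The platelet-type phosphofructokinase Pfkp rose by 3.99 ± 0.11 (adjusted p = 1.35e-09), beside Pkm and Slc2a1 above. On the falling side were Gckr, the glucokinase regulatory protein of liver (-7.22 ± 0.81, adjusted p = 1.72e-05), Pfkfb1, the liver bifunctional enzyme (-5.32 ± 0.65, adjusted p = 3.28e-05), and Pfkfb4 (-1.35 ± 0.12). Hk3 was at least 7.55-fold lower, and its log2 difference with normexp was -1.76. Pfkl, also among the 6, had the opposite sign in unscaled values.

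Among hormonal and transcriptional regulators of these genes, 23 of 33 tested fell, 6 rose and 4 did not pass (median -1.78). Crem, a cyclic AMP response factor, fell (-3.49 ± 0.20, adjusted p = 1.21e-07), as did Cebpa (-3.77 ± 0.23, adjusted p = 2.06e-07) and Mlx, the partner of the carbohydrate response factor (-1.65 ± 0.12, adjusted p = 5.59e-07). Pdk4, the kinase that holds pyruvate dehydrogenase inactive in fasting, was at least 24.1-fold lower. Its log2 difference with normexp was -2.67. The insulin receptor substrate Irs2 rose by 1.29 ± 0.25 (adjusted p = 0.000837), and Sirt1 (0.96 ± 0.15), Nr4a1 (1.59 ± 0.35) and Txnip (1.80 ± 0.42) rose too. With the slide as a block, 6 of the 29 calls of this list were lost, among them Nr4a1 (0.99, adjusted p = 0.189). Of the other lists, 2 of 18 glycogen calls and 2 of 15 uptake and glycolysis calls were lost that way, and 0 of 14 partner and 0 of 16 precursor calls. Since its slide term comes from the Mat arrays, the block cannot show whether such losses are due to the slide. Creb1 had the opposite sign with quantile scaling and in unscaled values, and Cebpb in unscaled values. The coactivator Ppargc1a stayed at background on all 12 arrays and was not tested. These lists were drawn up with earlier results of these data known, and their counts are a description.

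**Figure D3:**
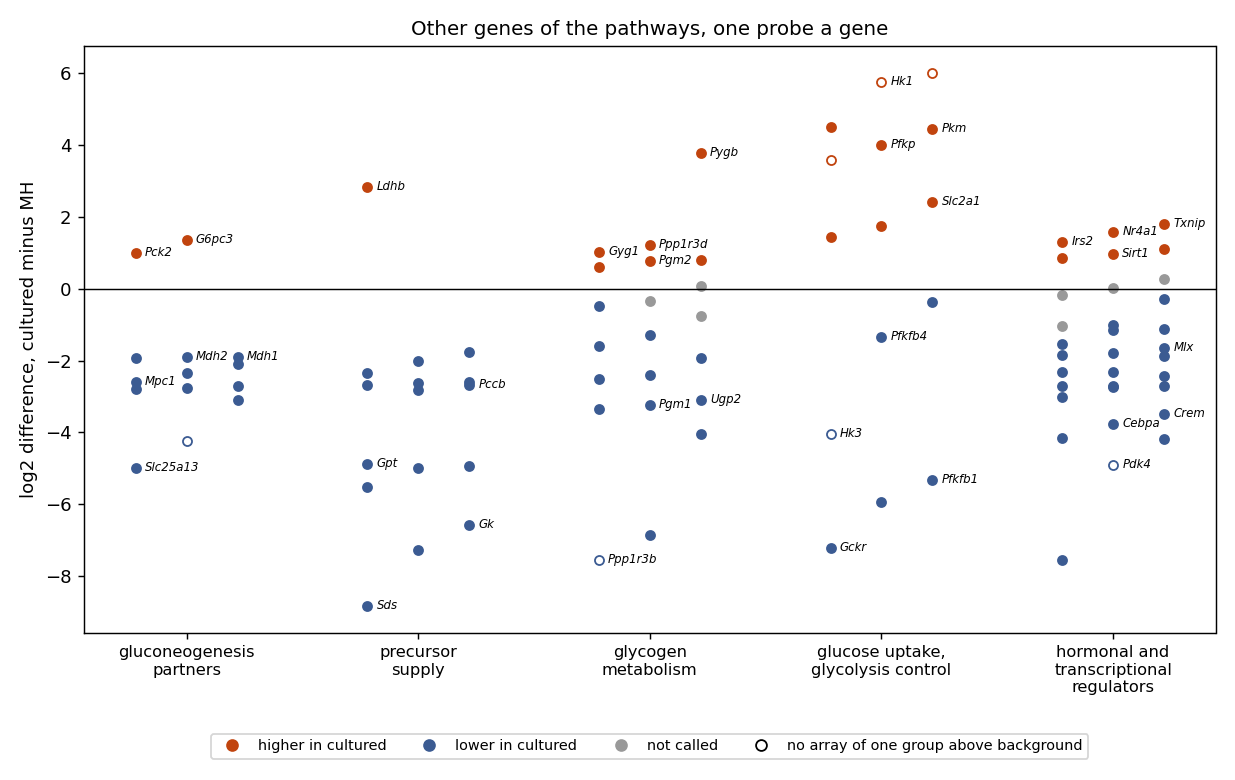
Log2 difference, cultured minus MH (vertical axis), for the tested genes of 5 pathway lists (points, 1 probe a gene; colour, the call at adjusted p under 0.05; open points, no array of 1 group well above background, so that the fitted value is not a bound). The precursor list lies below 0 but for Ldhb, whereas the uptake and glycolysis list lies on both sides.

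Cell-type markers moved between the groups as well. Of 10 hepatocyte markers 9 were lower in culture, with Alb turning to the opposite sign under quantile scaling, and the summed level of the list was 7.59 to 9.33 on cultured arrays and 10.47 to 10.81 on MH arrays. All 9 biliary and progenitor markers were higher (summed level 3.72 to 6.56 in culture and -2.01 to -1.91 in MH), and 6 of the 9, Krt19, Krt7 and Sox9 among them, were above background on 0 of 3 MH arrays. All 9 Kupffer cell markers (-2.58 to 0.61 in culture, 4.36 to 4.53 in MH) and 7 of 7 tested sinusoidal endothelial markers (-3.38 to -0.68 in culture, 3.15 to 3.27 in MH) were lower. Of these, 3 of 9 Kupffer cell markers (Cd5l, Marco and Adgre1) and 3 of 7 endothelial markers (Plvap, Lyve1 and Pecam1) were above background on 0 of 9 cultured arrays. The other markers of these 2 lists were above background on 1 to 9 cultured arrays, with Cd68, Kdr and Cdh5 on all 9. Of 8 stellate cell and fibroblast markers 3 were higher and 0 lower (1.11 to 6.35 in culture, 1.5 to 1.96 in MH), or 5 and 1 without the replicate 2 arrays of the cultured groups, and of 3 tested erythroid markers 0 were higher and 2 lower (-1.33 to -0.58 in culture, 0.78 to 1.27 in MH). With the slide as a block, under the same limit, the calls of Fga (hepatocyte), Vsig4 and Csf1r (Kupffer cell) and Des (stellate cell) were lost. The part of these in the differences of the members was not tested.

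Within the cultured cells the members did not vary together. On the replicate 2 arrays of LN111, LN511 and Mat, Fbp1 at both probes and Gys2 had their 3 lowest values, and Pklr and Pc were the lowest of their group on each substrate. Pck1 ran the other way and was highest on the replicate 2 array of each substrate, at -3.96, -3.55 and -4.96. Both probes of G6pc were the lowest of their group on replicate 2 of LN111 and Mat, and the highest on that of LN511. Slc2a2 on these arrays was 2.81, 3.09 and 2.98, within the range of 1.65 to 3.31 on the other cultured arrays. Within its substrate it was highest on replicate 2 of LN111 and Mat, but not of LN511. Pygl was lowest on replicate 2 of LN511 and Mat, and highest on that of LN111. The median of the hepatocyte markers, relative to its cultured mean, was -1.42, -1.84 and -1.65 on the replicate 2 arrays of LN111, LN511 and Mat, and -0.24 to 1.40 on the other 6. LN111 replicate 3, the noisy array, lay between at -0.24. The part of these arrays in the spread of the members was not tested. With the replicate 2 arrays of the cultured groups left out, the same 10 of 11 probes remained lower than MH.

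**Figure D4:**
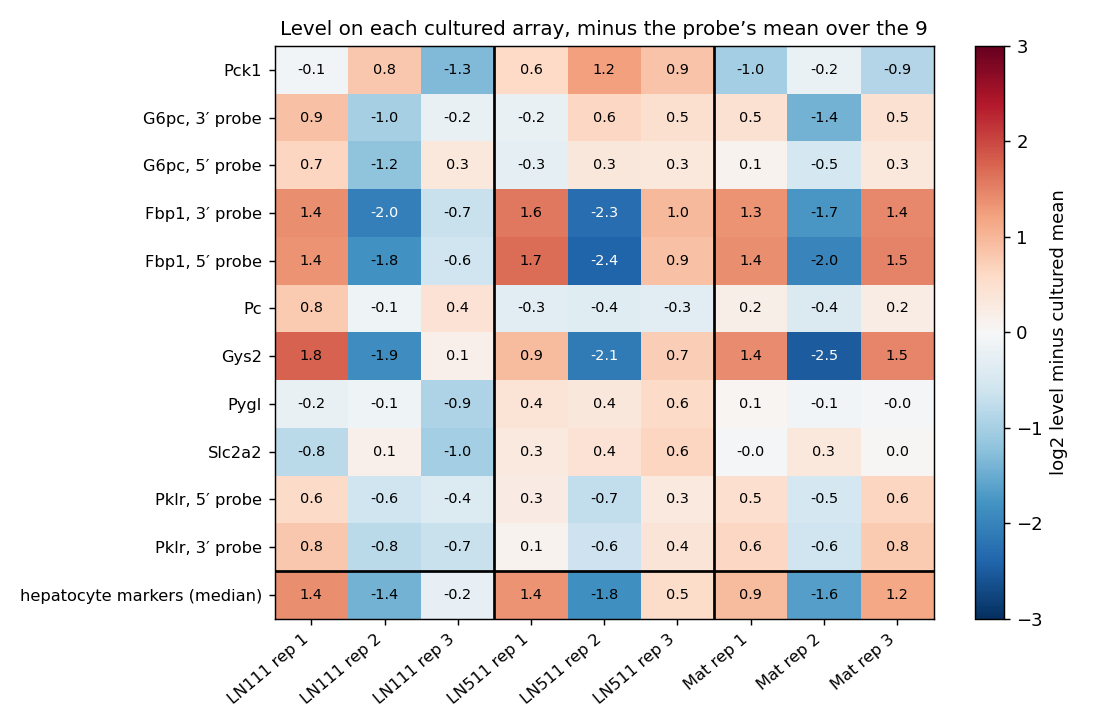
Level of each probe on each of the 9 cultured arrays, minus that probe's mean over the 9 (colour and printed value, log2), with the median of the hepatocyte marker list in the bottom row. The replicate 2 columns are blue for Fbp1, Gys2, Pklr and the markers, while Pck1 is at its highest there within each substrate.

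The genes whose pattern over the 9 cultured arrays was most like the mean centred profile of the members were named by Pearson's r, over 8 member probes and 13928 candidate probes. The 8 leave out Pck1, Gys2 and the 5′ probe of G6pc, which were not above background on all 9. Among the closest were Ass1 of the urea cycle (0.989), Khk, ketohexokinase (0.989), Etnk2, an ethanolamine kinase (0.988), and Fga, a fibrinogen chain (0.986). The 9 points share arrays and replicate numbers, so these values describe these arrays only. The member profile is weighted by Fbp1, whose swings are wide.

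The last comparisons set the substrates against each other, 3 arrays against 3, in a fit of the 9 cultured arrays and 22345 probes. LN111 against LN511 had 2 of 11 member probes called, a share near the 17.7% of all probes called. Pygl was lower on LN111 than on LN511 (-0.87 ± 0.21, adjusted p = 0.0283), and so was Slc2a2 (-1.01 ± 0.29, adjusted p = 0.0475). In both genes every LN111 array lay below every LN511 array, a separation whose share among all probes was not counted. The Pygl call was lost in unscaled values (-0.38, adjusted p = 0.554), with no filter (adjusted p = 0.0661), without any 1 LN511 array and without Mat replicate 1 or 3 (adjusted p = 0.0511 to 0.0952). It was also lost without the replicate 2 arrays (-1.07, adjusted p = 0.0553), and without these and LN111 replicate 3 (-0.71, adjusted p = 0.067). That of Slc2a2 was lost with quantile scaling (adjusted p = 0.0948), with no filter (adjusted p = 0.094), with the slide as a block (adjusted p = 0.0757), with the percentile over probes (adjusted p = 0.0608), in unscaled values (-0.52, adjusted p = 0.438) and when any 1 array other than LN111 replicate 2 was left out (adjusted p = 0.0642 to 0.143). Pc ran the other way. Its LN111 arrays, at -1.07 to -0.15, were all above its LN511 arrays, at -1.30 to -1.26, a separation likewise not counted among all probes. That difference of 0.70 ± 0.26 did not pass (adjusted p = 0.105), but did with the replicate block (adjusted p = 0.0374), without LN111 replicate 2 (0.95, adjusted p = 0.0275), without the replicate 2 arrays (0.94, adjusted p = 0.0289), and without these and LN111 replicate 3 (1.12, adjusted p = 0.0269). All 6 arrays were on slide 2, so the slide block left the Slc2a2 difference at -1.01 and changed only its p-value. The summed stellate cell and fibroblast markers were 5.6 to 6.35 on LN111 arrays and 1.11 to 3.43 on LN511 arrays, and the biliary and progenitor markers 3.72 to 5.44 on LN111 and 5.89 to 6.56 on LN511. Their part in these differences was not tested.

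LN511 against Mat had the widest difference in Pck1. Its 3 LN511 arrays, at -4.17 to -3.55, all lay above its 3 Mat arrays, at -5.78 to -4.96. The share of all probes separated in this way was not counted. Before scaling the arrays overlapped, with weak signals of 64.3 to 117 in LN511 and 38 to 99.4 in Mat. The difference of 1.59 ± 0.50 did not pass (adjusted p = 0.102). Over the alternatives it ran from 0.49, in unscaled values, to 1.84. The replicate 2 arrays of LN511 and Mat deviated together (correlation 0.716), while replicates 1 and 3 matched across numbers about as well as within them. With the replicate number as a block the Pck1 difference passed (adjusted p = 0.0331). It passed in 5 of 21 alternatives, which beside the block were normexp (1.27, adjusted p = 0.00417), leaving out LN111 replicate 2 or 3 (adjusted p = 0.0482 and 0.0289), and leaving out the replicate 2 arrays and LN111 replicate 3 (adjusted p = 0.0223). As fitted without the block, 0 of 11 probes were called for LN511 against Mat, where 8.01% of all probes were. The LN111 and LN511 arrays were all on slide 2, and Mat replicates 1 and 2 on slide 1. Substrate and slide thus cannot be fully told apart in comparisons with Mat. With the slide as a block 79 of all probes were higher and 4 lower, against 1537 and 253 as fitted. Of the member probes 0 were called. That slide term again comes from the Mat arrays. Pygl also separated, with the share of all probes again not counted. Its LN511 arrays, at -1.26 to -1.04, lay above its Mat arrays, at -1.70 to -1.55. Its difference of 0.47 ± 0.21 did not pass (adjusted p = 0.247), turned sign in unscaled values (-0.63) and passed without LN111 replicate 3 (adjusted p = 0.0464), and Pc, at -0.34 (adjusted p = 0.523), passed as lower in unscaled values (-1.43, adjusted p = 0.015).

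For LN111 against Mat 0 of 11 member probes were called by limma, as were 0% of all probes. At an unadjusted p under 0.05 there were 2738 probes, 1 of them a member, Slc2a2 (-0.67 ± 0.29, adjusted p = 0.407 by limma). The moderated F test over the 3 substrates called 0 of 11 member probes and 12.7% of all probes, with Pygl at the lowest adjusted p of the members (0.0691). Intervals show what these tests could miss. For Fbp1 at its 3′ probe, LN111 minus Mat was -0.79 with a 95% interval of -3.85 to 2.28, while for Pc it was 0.36 with -0.24 to 0.97.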

How the data were processed

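RNA from 12 samples (3 each of LN111, LN511, Mat and MH, grouped by title and source) was measured on single-colour arrays. Per the file headers, the deposited intensity is Agilent's processed signal, background-subtracted and detrended, which pulls low values to surrogates; Feature Extraction 10.7 is given per the submitters' processing notes. The authors' deposited value table holds the same linear intensity, uncentred and unscaled between arrays (no value differs by more than 0.0072 log2 from the scanner files; column medians 43.6 to 61.8 in LN111 and LN511, 57.5 to 90.9 in Mat, 23.6 to 27.6 in MH).

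Here log2 intensity minus each array's 75th percentile was used, with control and outlier-marked spots left out and spots of a probe averaged (45489 of 45598 probes kept). Signal 75th percentiles were 1340 to 2150 in LN111, 1130 to 1370 in LN511, 1920 to 3090 in Mat and 757 to 961 in MH. A probe entered the tests if some group had it well above background on each of its 3 arrays. Tests were two-sided (lmFit and eBayes of limma 3.58.1 in R 4.3.3), with Benjamini-Hochberg adjustment over all probes and a threshold of 0.05. MH comparisons came from a 12-array fit, substrate comparisons from the 9 cultured arrays. Tests were checked on simulated data. The simulated arrays had independent noise and no slide or shared replicate effect, so they do not test the p-values under such effects. Alternatives covered background correction, scaling, filters, slide, replicate block and leaving out arrays. Same-numbered arrays, numbered in the titles, had deviations correlated at 0.529, 0.716 and 0.117 between LN511 and Mat. Unlike numbers reached 0.527 for LN511 replicate 1 with Mat replicate 3, and 0.194 for LN511 replicate 3 with Mat replicate 1. Only replicate 2 was thus set apart by its number, and a pairing of numbers 1 and 3 is not shown. Same-numbered arrays correlated at 0.069 and 0.083 with LN111 replicate 3 and at -0.031 to 0.062 with MH, so those do not pair.

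Named were all member probes, their sister genes, the genes among the 5 most like the members' profile, and up to 4 genes per direction with the smallest p from each pathway list, some of which are not reported here; in the marker lists, defining markers at background were chosen after their values were seen. Genes were named through accessions or symbols in the RefSeq table for 29177 probes; others kept the file's name, which can be old. Members and lists were chosen with earlier results of these data known.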

Additional observations from a re-analysis of the deposited data

Results flagged for a closer look

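Of the members, 2 differed between laminin-111 and laminin-511 by the test of that difference itself, which is 2 of 11 probes, where 17.7% of all probes were called. Pygl was lower on LN111 than on LN511 by limma (log2 difference -0.869, adjusted p = 0.0283), with all 3 LN111 arrays below all 3 LN511 arrays, a call lost in 9 of 22 alternatives. Slc2a2 was lower on LN111 as well (-1.009, adjusted p = 0.0475), again with 3 arrays below 3, and this call was lost in 13 of 22. The share of all probes separated in this way was not counted.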

How the results depend on the processing

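Over the alternatives run, member probes called lower than MH numbered 7 to 11 for cultured cells, 8 to 11 for LN111, and 7 to 10 for LN511 and for Mat. The low ends are settings that test fewer probes (8 with the strict filter). Relative to MH the median of all probes was -0.16, and -0.41 with normexp, 0.19 with quantile scaling and 0.88 in unscaled values, so differences are relative to these. Higher probes were 43.1% of those called in the main setting, and 25.6%, 56.2% and 78.5% in that order. Slc2a2 reversed in unscaled values, at 0.065 for LN111 and 1.334 for Mat against MH (adjusted p = 0.891 and 0.00737), and passed for LN511 with quantile scaling (0.91, adjusted p = 0.0353). For LN511 against Mat, member calls were 1 with normexp, 3 unscaled, 1 with the replicate block, 0 to 2 leaving out 1 array, and 1 without the replicate 2 arrays and LN111 replicate 3, an alternative chosen after seeing the data. For LN111 against LN511 they were 1 with quantile scaling, 0 unscaled, 0 with no filter, 1 with the slide as a block, 1 with the percentile over probes, and 0 to 4 leaving out 1 array (4 without LN111 replicate 2). For the F test they were 2 with normexp, 1 unscaled, 1 with the replicate block, 0 to 3 leaving out 1 array (3 without LN111 replicate 2), and 1 and 2 without the replicate 2 arrays, alone and with LN111 replicate 3. The cause was not tested. The replicate block changed no member call other than those of Pc for LN111 against LN511, Pck1 for LN511 against Mat and 1 call of the F test; the adjusted p of Pc was 0.0374. The weak signals of Pck1, Gys2 and the 5′ probe of G6pc in culture limit the size of their differences, which with normexp were -7.87, -6.78 and -6.05. The bounds without 1 array and the list calls with the slide as a block were also added after seeing the data. In comparisons with MH or Mat that block takes its slide term from the Mat arrays. Calls kept or lost with it there cannot be put down to the slide.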
